A study of Cavia porcellus with 13 samples.

Results

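The genes described here are the immediate early genes of guinea pig skin at a tick bite, above all ATF3, FOSB and NR4A1. Members were the rows of the deposited expression table whose symbol, case ignored, was FOS, FOSB, JUN, JUNB, EGR1, EGR2, ATF3, NR4A1, IER2 or DUSP1. Of these 10 symbols, 9 had a row, out of 26855 genes in the table. IER2 matched no row by symbol and was not analysed here. All 9 members were above the filter on low values, at least 1 TPM (the usual abundance unit, a share of the library's transcripts that is corrected for gene length) in at least 2 libraries, which 14979 genes passed.

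Immediate early genes are transcribed within minutes of a stimulus, because the factors that switch them on, among them serum response factor and its partners, are already present in the cell. Their products are mostly transcription factors that act on later genes, and their messenger RNAs are short-lived. FOS and JUN family proteins pair to form AP-1, ATF3 can join such pairs and is also a target of stress signalling, NR4A1 is an orphan nuclear receptor, and DUSP1 is a phosphatase that switches MAP kinases off again. In skin these genes respond to wounding, ultraviolet light and growth factors.

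RNA was taken from skin of guinea pigs and sequenced as 13 libraries in 5 groups. All carry the same time, 4 days after tick attachment, also the naive libraries, which were taken as unbitten. In the libraries whose titles start with CK1, the groups were bitten skin of a first exposure (n = 3), bitten skin of animals labelled saliva immune (n = 3) and naive skin (n = 2, naive replicates 1 and 2). In those whose titles start with EF19-5, they were skin of animals with 2 tick bites (n = 2), with 3 tick bites (n = 2) and naive skin (n = 1, naive replicate 3). The title prefix was taken as the experiment, and groups were compared within it. The labels give no strain, age or sex, and do not say whether each library stands for an animal of its own. The p-values therefore reflect how far these libraries spread, which may be technical.

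Every column of the table summed to 1000000 TPM, so a value is a share of a library, and library depth cannot be read from it. The 9 measured of 14 epidermal keratinocyte markers were all above the filter and summed to between 9984 and 51391 TPM per library, as the label skin has it. Skeletal muscle markers, 22 of 25 in the table and none at 0 in any library, held 8.84% and 15.5% of the TPM in the CK1 naive libraries and 2.15% in the EF19-5 naive library. They held 2.19% to 9.09% in the bitten CK1 libraries and 0.559% to 1.37% in the bitten EF19-5 libraries. The 8 measured of 9 T cell markers overlapped narrowly in CK1, at 4.46 to 9.55 TPM in its naive libraries and 9.47 to 23.0 TPM in its bitten ones. They did not overlap in EF19-5, at 9.58 TPM in its naive library and 10.2 to 30.0 TPM in its bitten ones. Macrophage, neutrophil and fat markers moved the other way from muscle in CK1. The 10 monocyte and macrophage markers summed to 114 to 159 TPM in its naive libraries and 239.7 to 596 TPM in its bitten ones, the 6 measured of 8 neutrophil markers to 82.7 to 120.1 and 216 to 2240 TPM, and the 11 measured of 12 adipocyte markers to 1053 to 1526 and 2854 to 8095 TPM. In EF19-5 the naive library lay within the bitten range in macrophage and adipocyte markers (274 and 2606 TPM) and below it in neutrophil markers (165 against 188 to 632 TPM). There the naive library also lay below all bitten libraries in the 9 measured keratinocyte markers (25157 against 35328 to 51391 TPM) and above them in the 8 fibroblast markers (12696 against 3202 to 8862 TPM). Among the neutrophil genes MPO was at 0 in every library, and the part of these cells in the results below was not tested. In bulk skin, fewer cells of a type and less RNA per cell cannot be told apart.

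ATF3 (ENSCPOG00000034947), a stress-induced partner of AP-1 proteins, stood at 252 and 129.7 TPM in the CK1 naive libraries. In the same experiment it stood at 45.2, 29.9 and 27.3 TPM after a first exposure and at 77.5, 37.8 and 31.8 TPM in saliva immune skin. All 6 bitten CK1 libraries therefore lay below both naive ones, without overlap. In EF19-5 the naive library held 35.8 TPM of ATF3, the 2 bites libraries 9.15 and 16.4 TPM, and the 3 bites libraries 41.1 and 41.9 TPM. Here the 2 bites libraries lay below the naive library and the 3 bites libraries above it.

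FOSB (ENSCPOG00000015608), the FOS relative that forms AP-1 with JUN proteins, had the widest range of the 3 genes. It stood at 364 and 108.9 TPM in the CK1 naive libraries, against 33.2, 55.5 and 20.9 TPM after a first exposure and 94.3, 67.7 and 22.3 TPM in saliva immune skin. Again no bitten CK1 library reached a naive one, although saliva immune replicate 1 came within 1.16-fold of naive replicate 2. In EF19-5, FOSB stood at 33.9 TPM in naive skin, 14.1 and 9.10 TPM after 2 bites, and 10.9 and 46.1 TPM after 3 bites. The 3 bites libraries lay on either side of the naive library and 4.21-fold apart.

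NR4A1 (ENSCPOG00000003095), an orphan nuclear receptor that many stimuli switch on directly, stood at 214 and 163 TPM in the CK1 naive libraries. First exposure libraries held 54.3, 27.7 and 24.6 TPM of it, and saliva immune libraries 115.1, 94.8 and 23.1 TPM. In EF19-5 its level was 20.7 TPM in naive skin, 14.7 and 11.8 TPM after 2 bites, and 19.6 and 20.2 TPM after 3 bites. NR4A1 was the member whose bitten libraries lay below every naive library of their own experiment in both experiments, in EF19-5 by as little as 20.2 against 20.7 TPM.

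**Figure D1:**
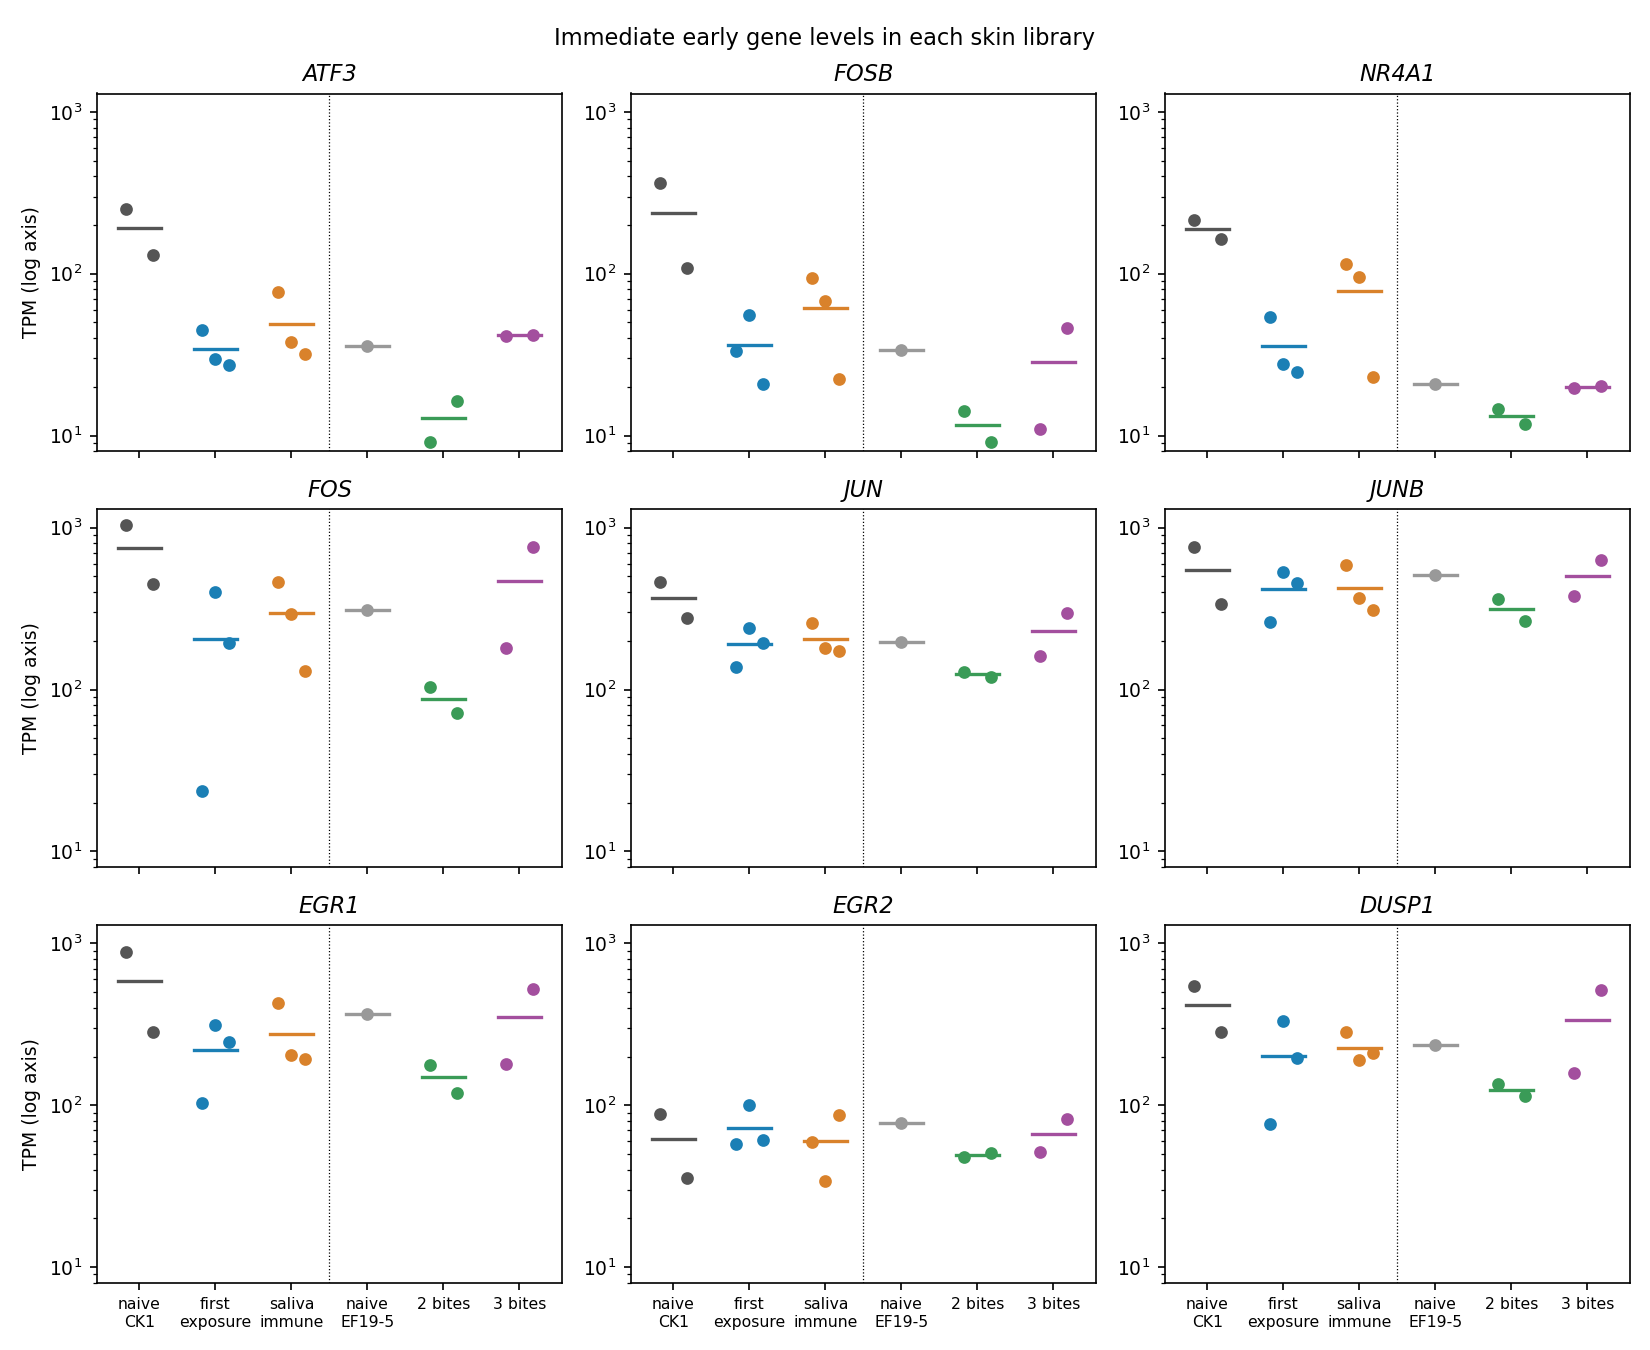
TPM of the 9 immediate early genes in each library (log vertical axis), by group, with CK1 groups left and EF19-5 groups right of the dotted line; points are libraries and bars are group means. ATF3, FOSB and NR4A1 reach 252, 364 and 214 TPM in a CK1 naive library but 35.8, 33.9 and 20.7 TPM in the EF19-5 naive library.

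By mean TPM over all libraries the most abundant members were JUNB (443 TPM), FOS (339.8 TPM), EGR1 (309 TPM), DUSP1 (252 TPM) and JUN (217 TPM). FOS (ENSCPOG00000033284), the founding member of the FOS family, stood at 1039 and 451 TPM in CK1 naive skin, at 23.6, 398 and 193 TPM after a first exposure, and at 463, 295 and 129.6 TPM in saliva immune skin. In EF19-5 it was 312 TPM in naive skin, 104 and 71.2 TPM after 2 bites, and 181 and 758 TPM after 3 bites. First exposure replicates 1 and 2 differed 16.9-fold in FOS, and saliva immune replicate 1 exceeded naive replicate 2, so bitten and naive libraries overlapped in both experiments.

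JUN (ENSCPOG00000026377), the usual partner of FOS in AP-1, varied less. Its levels were 459.5 and 275 TPM in CK1 naive skin, 137, 239 and 194 TPM after a first exposure, and 258, 182 and 174 TPM in saliva immune skin. With all 6 bitten libraries below both naive ones, it was the other member without overlap in CK1. In EF19-5 the naive library held 197 TPM, the 2 bites libraries 128 and 120.1 TPM, and the 3 bites libraries 160.1 and 298 TPM.

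JUNB (ENSCPOG00000020703), a JUN family protein that is common in epidermis, was the highest member in 10 of the 13 libraries, the exceptions being naive replicates 1 and 2 and 3 bites replicate 2, where FOS was highest. It stood at 764 and 336 TPM in CK1 naive skin, and its 6 bitten CK1 libraries ran from 263 to 587 TPM with a median of 411 TPM, between and below the naive values. In EF19-5 it was 510.0 TPM in naive skin, 361 and 264 TPM after 2 bites, and 377 and 628 TPM after 3 bites.

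EGR1 (ENSCPOG00000027141), a zinc finger factor that serum response factor controls, stood at 887 and 284 TPM in CK1 naive skin and between 103 and 427 TPM in the bitten CK1 libraries, which overlapped them. In EF19-5 it was 365 TPM in naive skin, 178 and 119.8 TPM after 2 bites, and 181 and 526 TPM after 3 bites. EGR2 (ENSCPOG00000037511), its relative, was the member that least followed the others. It stood at 87.8 and 35.5 TPM in CK1 naive skin, was highest of all in first exposure replicate 2 at 100.5 TPM, and was 77.8 TPM in EF19-5 naive skin.

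DUSP1 (ENSCPOG00000013344), the phosphatase that ends MAP kinase signals, stood at 549 and 282 TPM in CK1 naive skin. Its bitten CK1 libraries ran from 76.3 TPM in first exposure replicate 1 to 331 TPM in first exposure replicate 2, which lay above naive replicate 2. In EF19-5 it was 237 TPM in naive skin, 135 and 113.9 TPM after 2 bites, and 159 and 514 TPM after 3 bites. The 514 TPM of 3 bites replicate 2 was the second highest level of any library, below naive replicate 1 alone.

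Much of this pattern lay in single libraries. Naive replicate 1 was the highest library for 8 of the 9 members, EGR2 being the exception, and the members together held 0.462% of its TPM. The next were 3 bites replicate 2 at 0.291% and saliva immune replicate 1 at 0.236%, and naive replicates 2 and 3 held 0.207% and 0.179%. The lowest share, 0.0777%, was in 2 bites replicate 2, and first exposure replicate 1, at 0.0793%, was the lowest library for 4 members.

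The naive libraries differed among themselves more in these genes than in most, and so did the bitten libraries. The median range of the members was above that of 92.8% of tested genes over the naive libraries. It was above 95.7% over the bitten CK1 libraries and 96.7% over the bitten EF19-5 libraries. Over the 3 naive libraries the range of log2(TPM + 1), highest minus lowest, had a median of 1.64 for the members and 0.626 for all tested genes. FOSB ranged more widely there than 99.8% of tested genes, NR4A1 more than 99.7% and ATF3 more than 99.1%. Between the 2 CK1 naive libraries the median range was 1.18 for the members against 0.349 for all genes, and NR4A1, at 1.31-fold, ranged more than 54.1% of genes there. The mean of the CK1 naive libraries was 5.33 times the EF19-5 naive library for ATF3, 6.98 times for FOSB and 9.09 times for NR4A1, but 2.39 times for FOS, 1.08 times for JUNB and 0.793 times for EGR2. For JUNB, EGR1 and EGR2 the EF19-5 naive library lay between the 2 CK1 naive libraries. A single naive library stands for EF19-5, so whether naive levels differ between the experiments was not tested.

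Differences between groups were tested with limma on log2(TPM + 1) over all 14979 genes, two-sided, with Benjamini-Hochberg adjustment and a threshold of 0.05. Comparisons with naive skin share their control libraries and are given side by side, with no overlap counted between them. A fold change on this scale understates the change of low genes.

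In bitten against naive skin, with the experiment as a term, ATF3 differed by -1.65 on the log2 scale (SE 0.460, adjusted p = 0.145 by limma). FOSB differed by -1.80 (SE 0.548, adjusted p = 0.168 by limma) and NR4A1 by -1.42 (SE 0.480, adjusted p = 0.205 by limma). These correspond to 3.13-fold, 3.49-fold and 2.68-fold lower levels. No member passed the adjusted threshold, 0 of 9, where 0.0134% of all genes were called lower and 0.0267% higher. At an unadjusted p under 0.05, ATF3, FOSB, NR4A1, JUN and EGR1 were lower, 5 of 9 members against 4.58% of all genes. The members were chosen with earlier results of these data known and are mostly correlated, so such counts do not test the set. All 9 differences were negative, with a median of -1.02, against 35.4% negative and a median of 0.10 over all genes. FOS differed by -1.54, EGR1 by -1.02, DUSP1 by -0.77, JUN by -0.66, JUNB by -0.35 and EGR2 by -0.05.

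Within CK1, 4 of 9 members (ATF3, FOSB, NR4A1 and JUN) had all 6 bitten libraries below both naive ones, which held for 5.02% of all genes. Within EF19-5, 1 of 9 (NR4A1) had all 4 bitten libraries below the naive library, against 15.3% of all genes. The test of whether the bite difference itself differed between the experiments gave no member at the adjusted threshold, 0 of 9, with 0% of all genes called in either direction. None had an unadjusted p under 0.05, where 0.474% of genes were higher and 2.22% lower. Its values were 1.66 for NR4A1 (SE 0.935), 1.56 for ATF3 (SE 0.900) and 1.19 for FOSB (SE 1.15), each with an adjusted p of 0.9995 by limma. Leaving out naive replicate 1 brought ATF3 and FOSB in bitten against naive skin to -1.19 each and NR4A1 to -1.10. Without naive replicate 3, which leaves CK1 alone for the contrast, they were -2.19, -2.22 and -2.00.

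**Figure D2:**
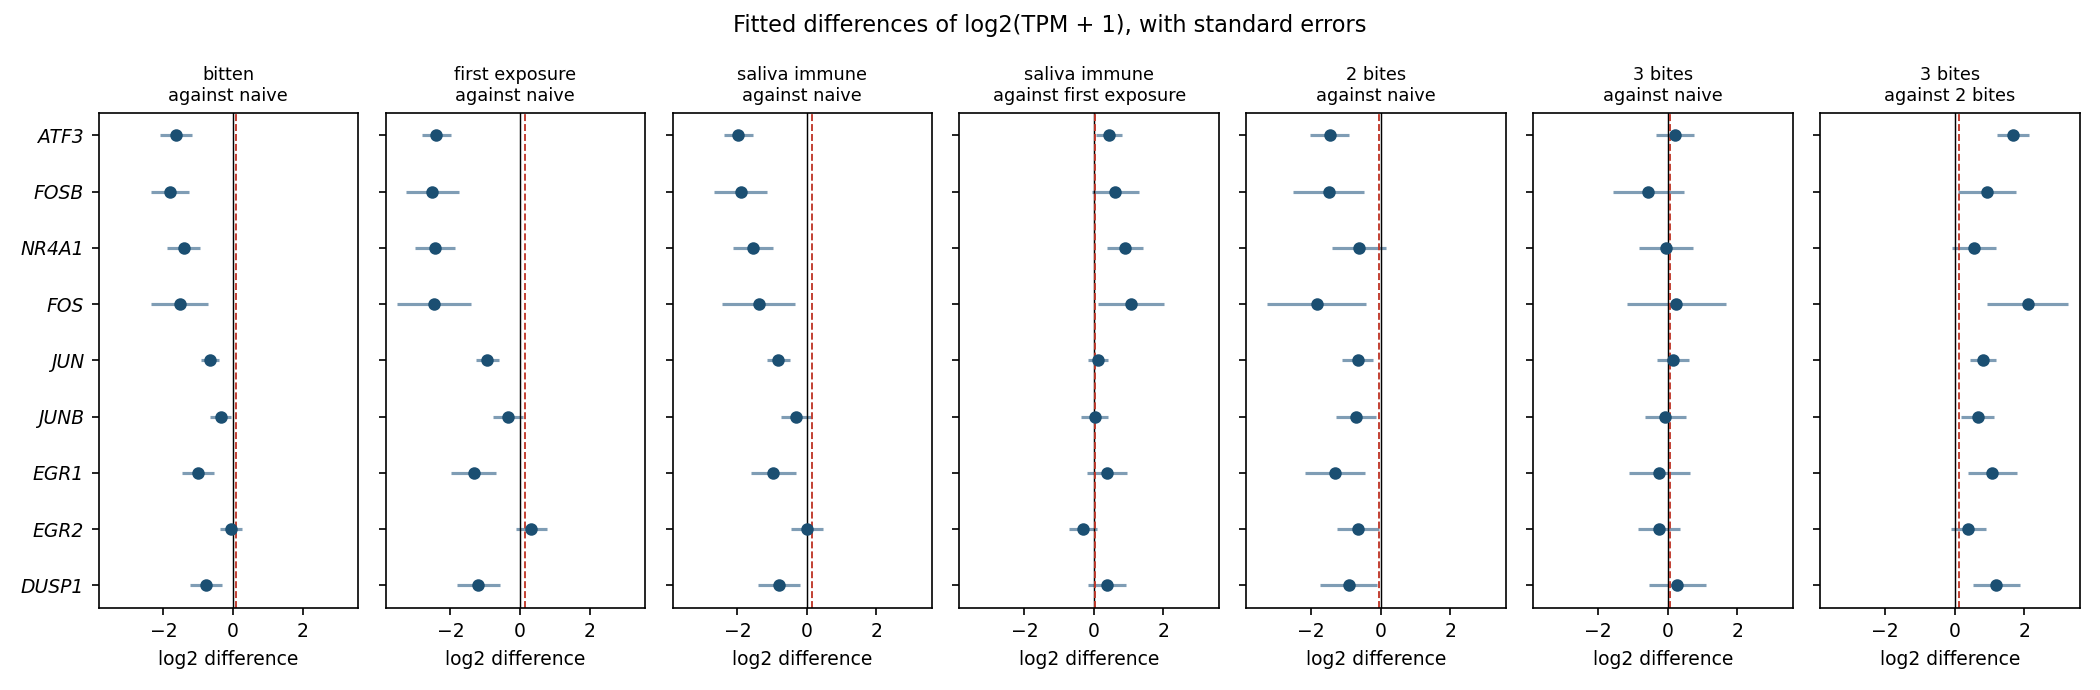
Log2 difference of each of the 9 genes in each comparison (limma on log2(TPM + 1); bars are standard errors; the dashed line is the median of all tested genes). ATF3, FOSB and NR4A1 lie between -2.52 and -1.42 in bitten, first exposure and saliva immune against naive skin, and near 0 or above it in 3 bites against naive skin apart from FOSB at -0.56.

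First exposure skin was compared with CK1 naive skin. ATF3 differed by -2.41 (SE 0.416, adjusted p = 0.128 by limma), FOSB by -2.52 (SE 0.761, adjusted p = 0.240 by limma) and NR4A1 by -2.45 (SE 0.579, adjusted p = 0.185 by limma), which are 5.30-fold, 5.75-fold and 5.47-fold lower levels. FOS differed by -2.47 with a larger error (SE 1.06, adjusted p = 0.355 by limma), by -1.30 without first exposure replicate 1 and by -3.31 without replicate 2. FOSB ran from -3.39 without naive replicate 2 to -1.66 without naive replicate 1, and EGR1 from -2.15 to -0.51 without the same libraries. No member was called, 0 of 9, against 0.0134% of genes called lower and 0.02% higher. The libraries did not overlap, all first exposure below both naive, for ATF3, FOSB, NR4A1, FOS and JUN, 5 of 9 members against 14.1% of genes, and the same 5 had an unadjusted p under 0.05, against 4.49% of genes. JUN differed by -0.94, EGR1 by -1.33 and JUNB by -0.34, DUSP1 was 2.29-fold lower, while EGR2 lay at 0.33. The median of the members was -1.33 and that of all genes 0.14. NR4A1 was called without saliva immune replicate 3, at an unaltered -2.45 (adjusted p = 0.0229 by limma, where 0.0605% of genes were called lower).

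Skin of saliva immune animals gave differences from CK1 naive skin of -1.97 for ATF3 (SE 0.416, adjusted p = 0.224 by limma), -1.91 for FOSB (SE 0.761, adjusted p = 0.386 by limma) and -1.54 for NR4A1 (SE 0.579, adjusted p = 0.377 by limma). No member was called, 0 of 9, where 0% of genes were called lower and 0.00668% higher. ATF3, FOSB, NR4A1 and JUN lay below both naive libraries in all 3 saliva immune libraries, 4 of 9 members against 6.22% of genes, and these 4 were also the members with an unadjusted p under 0.05, against 2.08% of genes. The others ran from -1.39 for FOS to 0.01 for EGR2, and the member median was -0.97 against 0.14 for all genes. NR4A1 was -0.83 without saliva immune replicate 3, and FOSB ran from -2.77 without naive replicate 2 to -1.04 without naive replicate 1.

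Saliva immune and first exposure skin, both bitten and both in CK1, overlapped in all 9 members. No member, 0 of 9, separated the groups, where 5.41% of genes were higher and 1.35% lower in saliva immune skin without overlap. NR4A1 lay at 0.91 (95% interval -0.25 to 2.06), FOSB at 0.62 (-0.90 to 2.13) and ATF3 at 0.44 (-0.39 to 1.26), each with an adjusted p of 1 by limma. No member was called and none had an unadjusted p under 0.05, where 0% of genes were called in either direction and 1.8% higher and 0.547% lower had an unadjusted p under 0.05. When libraries were weighted by their estimated quality, NR4A1 lay at 1.84 (adjusted p = 0.00641 by limma), FOSB at 1.61 (adjusted p = 0.0212 by limma) and ATF3 at 1.24 (adjusted p = 0.0098 by limma), 3 members called. That fit did not converge, gave saliva immune replicate 1 a weight of 51.9 against 0.179 to 1.83 for every other library, and called 8.84% of all genes higher. Saliva immune replicate 1 was the highest bitten CK1 library in all 3 genes.

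In EF19-5, 2 bites skin lay below the naive library for all 9 members, a pattern that 43.3% of genes showed. The differences were -1.47 for ATF3 (SE 0.558, adjusted p = 0.778 by limma), -1.50 for FOSB (SE 1.02, adjusted p = 0.950 by limma) and -0.62 for NR4A1 (SE 0.777, adjusted p = 0.998 by limma). No member was called, 0 of 9, against 0% of genes lower and 0.0134% higher, and ATF3 alone had an unadjusted p under 0.05, against 3.16% of genes. Without the experiment term, which sets this skin against all 3 naive libraries, ATF3 was called at -3.01 (adjusted p = 0.0485 by limma, where 0.728% of genes were called lower).

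Skin after 3 bites lay closer to that naive library. ATF3 differed by 0.21, NR4A1 by -0.06 and FOSB by -0.56, with 0 of 9 members called, 0% of genes called lower and 0.00668% higher, and 0 members at an unadjusted p under 0.05, where 0.694% of genes were lower and 1.65% higher. The 95% intervals reached from -1.03 to 1.45 for ATF3 and from -1.79 to 1.67 for NR4A1. The members' median was -0.06 and that of all genes 0.08. ATF3 was the 1 member above the naive library in both 3 bites libraries, which held for 41.1% of genes, and NR4A1 the 1 member below it, which held for 24.2%.

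Set against each other, 3 bites lay above 2 bites for all 9 members, as for 64.8% of genes, and without overlap for 8 of them, FOSB being the exception, against 35.6% of genes. Some of these gaps were narrow. The lower 3 bites library held 181.0 TPM of EGR1 against 177.7 TPM in the higher 2 bites library, 51.2 against 50.4 TPM of EGR2 and 377 against 361 TPM of JUNB. ATF3 had the smallest p, at 1.68 (SE 0.455, adjusted p = 0.345 by limma), and was 3.20-fold higher with its replicates close together. FOS lay at 2.09 (SE 1.16), EGR1 at 1.08 and DUSP1 2.30-fold higher. In these genes 3 bites replicate 2 held 4.19, 2.90 and 3.23 times the TPM of replicate 1. Without 3 bites replicate 2, FOS lay at 1.06, EGR1 at 0.31 and DUSP1 at 0.36. No member was called, 0 of 9, against 0% of genes, and ATF3 and JUN had an unadjusted p under 0.05, 2 of 9 against 8.12% of genes. The median of the members was 0.94, and without 3 bites replicate 2 it was 0.36, against 0.13 for all genes.

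The 9 genes were mostly correlated with each other across the 13 libraries. Of the 36 pairs, 35 had a positive Pearson correlation of log2(TPM + 1), 24 were over 0.5, and 21 had an adjusted permutation p under 0.05 (20 by Spearman's rho), with libraries of all groups pooled. These p-values therefore also take in differences between experiments and groups. The share of all gene pairs with such values was not computed, so the counts are not particular to these genes. FOS and DUSP1 gave r = 0.957 and rho = 0.945 (permutation p = 1e-05 for each, the smallest that 100000 resamples can give, adjusted p = 6e-05 and 7.2e-05, n = 13). Without the 2 libraries farthest from the median of FOS their r was 0.927, and within the 8 CK1 libraries 0.956. The 5 EF19-5 libraries were too few for a value of their own.

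ATF3 and NR4A1 gave r = 0.865 and rho = 0.736 (permutation p = 6e-05 and 0.00579, adjusted p = 0.00027 and 0.0124, n = 13), with r = 0.832 without the 2 farthest libraries and 0.896 within CK1. FOSB and NR4A1 gave r = 0.891 and rho = 0.885 (permutation p = 1e-05 and 0.00013, adjusted p = 6e-05 and 0.000585, n = 13), with 0.823 and 0.889 in the same checks. JUN was also close to FOSB, with r = 0.878 and rho = 0.841 (permutation p = 0.00018 and 0.00066, adjusted p = 0.000499 and 0.00236, n = 13), and to ATF3, with r = 0.824 and rho = 0.659 (permutation p = 0.00062 and 0.0175, adjusted p = 0.00149 and 0.0349, n = 13). Without the 2 farthest libraries these r were 0.724 and 0.616, and within CK1 0.880 and 0.820. The pair of NR4A1 and FOS gave r = 0.447 and rho = 0.555 (permutation p = 0.127 and 0.0526, adjusted p = 0.157 and 0.0823, n = 13), and 0.159 without the 2 farthest libraries. With EGR2 its r was -0.211 and its rho 0.110 (permutation p = 0.489 and 0.722, adjusted p = 0.517 and 0.743, n = 13), and r was -0.427 within CK1. Whether the values of r differ between pairs was not tested.

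**Figure D3:**
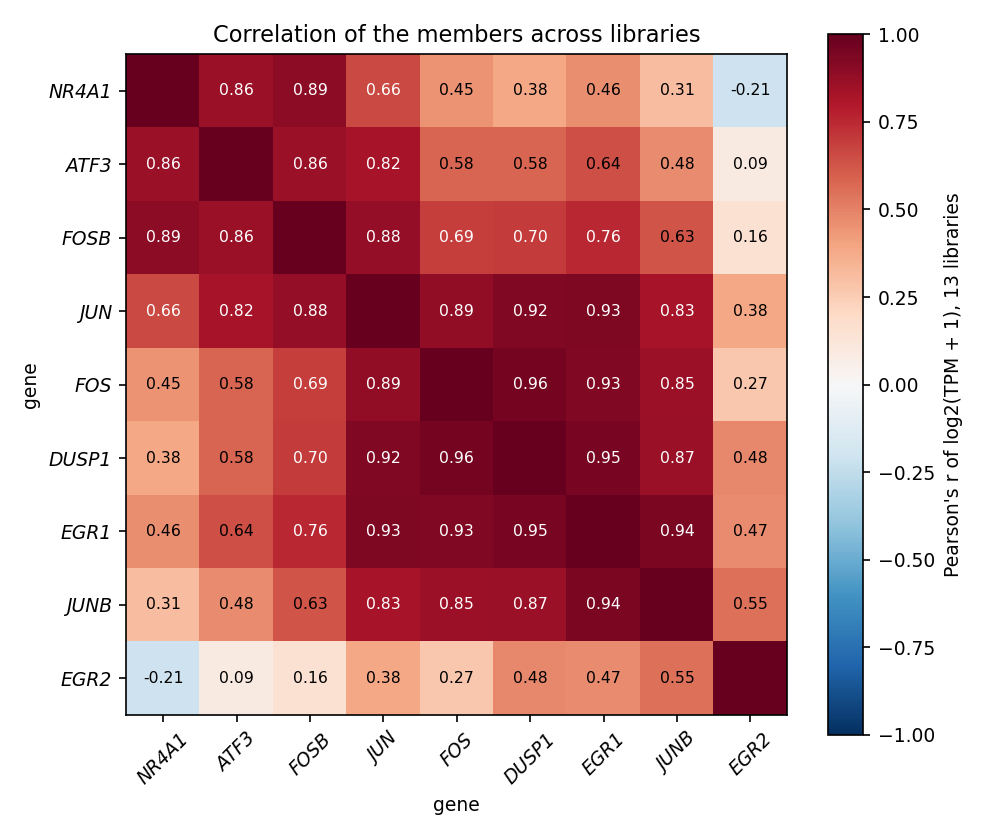
Pearson's r of log2(TPM + 1) between each pair of the 9 genes over the 13 libraries (colour and number, from -1 to 1). The values among FOS, DUSP1, EGR1, JUN and JUNB are all 0.828 or higher, JUN is also high with FOSB (0.878) and ATF3 (0.824), and EGR2 is low with most, down to -0.21 with NR4A1.

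Skeletal muscle markers moved with part of this set. The mean log2(TPM + 1) of the 22 measured muscle genes correlated with NR4A1 at r = 0.849 and rho = 0.918 (permutation p = 0.00059 and 3e-05, adjusted p = 0.00531 and 0.00027 over 9 members, n = 13), with r = 0.852 without the 2 farthest libraries and 0.756 within CK1. FOSB gave r = 0.691 and rho = 0.725 (permutation p = 0.00843 and 0.00698, adjusted p = 0.0291 and 0.0314, n = 13), and 0.546 within CK1. ATF3 gave r = 0.667 and rho = 0.582 (permutation p = 0.00971 and 0.0407, adjusted p = 0.0291 and 0.122, n = 13), and 0.516 within CK1. By rho ATF3 did not pass. The other 6 members ran from r = -0.205 for EGR2 to 0.455 for JUN and passed by neither measure. The share of all genes that correlate as strongly with the muscle score was not computed. The permutations pooled libraries of both experiments and all groups, so these p-values also take in differences between experiments and groups. No p was computed for the values of r within CK1. The naive libraries of CK1, where ATF3, FOSB and NR4A1 were highest, also had a high muscle share, 1 of them the highest of all libraries.

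With the muscle score as a covariate, the bitten against naive difference was -0.80 for NR4A1 (adjusted p = 0.715 by limma), -1.64 for FOSB and -1.35 for ATF3 (adjusted p = 0.552 by limma). In first exposure against naive skin it was -1.86 for NR4A1, -2.44 for FOSB and -2.26 for ATF3. Each of the 3 genes lay nearer to 0 with the covariate than without it in both comparisons, NR4A1 by the most. Of the CK1 naive libraries, replicate 2 had the higher muscle share and replicate 1 the higher level of each of the 3 genes. Muscle share also tended to be higher in naive libraries and in CK1, so the covariate cannot tell muscle RNA apart from these. The part of muscle RNA in these differences was not tested.

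**Figure D4:**
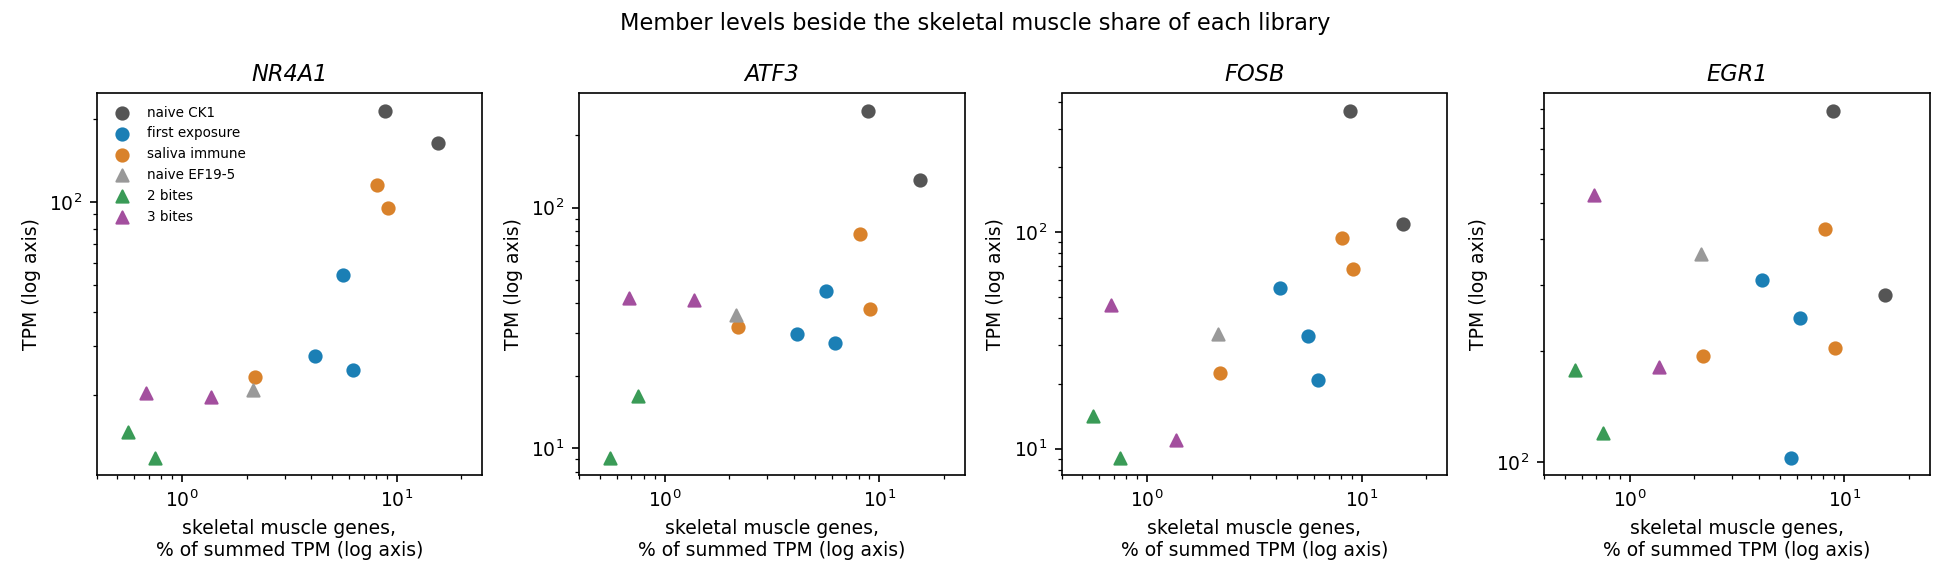
TPM of NR4A1, ATF3, FOSB and EGR1 against the share of each library's TPM in 22 skeletal muscle genes (log axes; circles are CK1 and triangles EF19-5 libraries, coloured by group). NR4A1 follows the muscle share from 0.559% to 15.5% most closely, and the 2 CK1 naive libraries lie at the upper right in its panel and in those of ATF3 and FOSB.

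The genes outside the 10 symbols whose levels were most like ATF3 over the 13 libraries, among 9761 genes with a symbol and a mean of at least 5 TPM, were DCUN1D2 (r = 0.929), AMOT (0.925), ROCK2 (0.900), TADA3 (0.898) and TFDP2 (0.888). FOSB was most like NR4A2 (r = 0.880), another orphan nuclear receptor of the NR4A family, followed by MID1IP1 (0.870), DIP2C (0.855), NDUFAF1 (0.853) and MED27 (0.852). Genes most like NR4A1 included UHRF1BP1 (r = 0.951), PLCD4 (0.935), DNAJB5 (0.933) and SLC25A25 (0.930). These correlations describe the same libraries and carry no test. The 2 CK1 naive libraries lay above every bitten library for some of these genes, such as DCUN1D2, AMOT and DNAJB5, but not for others, such as NDUFAF1, with 14.6 and 14.9 TPM there and up to 15.5 TPM in bitten skin. PLCD4, for one, averaged 18.9 TPM in the CK1 naive libraries, 3.60 TPM in the EF19-5 naive library and 4.66 ± 3.62 TPM (SD, n = 10) in bitten skin.

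Other genes of the same pathways were counted over whole lists. The genes named below were mostly picked from each list for a small p in bitten against naive skin, so their differences do not stand for the list. Of the 18 measured other immediate early transcription factors, 0 were called in bitten against naive skin, where 0.0134% of all genes were called lower and 0.0267% higher. In this list 10 lay lower and 8 higher, against 35.4% of all genes lower. The median difference was -0.01 against 0.10 for all genes. Among these 18 factors were the relatives of NR4A1. NR4A3 stood at 21.2 and 27.6 TPM in CK1 naive skin, 2.30 TPM in EF19-5 naive skin, 1.19 to 9.42 TPM in bitten CK1 skin and 0.808 to 5.37 TPM in bitten EF19-5 skin. NR4A2 stood at 35.1, 20.8 and 2.50 TPM in naive replicates 1, 2 and 3, and at 25.2 TPM in saliva immune replicate 1, above naive replicate 2. Its bitten EF19-5 libraries held 2.87 to 5.75 TPM, all above the naive library there, unlike those of NR4A1. For NR4A3 both 2 bites libraries, at 3.76 and 3.12 TPM, also lay above that naive library. The bitten against naive difference was -1.39 for NR4A3 (adjusted p = 0.284 by limma) and -0.91 for NR4A2 (adjusted p = 0.380 by limma), and for IRF1, an interferon response factor, it was 0.94.

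The 19 measured other AP-1 and ATF/CREB genes had 0 calls, 10 lower and 9 higher, with a median of -0.01, where 35.4% of all genes lay lower and the median was 0.10. ATF4, the main effector of the integrated stress response and an activator of ATF3, differed by -0.73 (adjusted p = 0.176 by limma), JUND by -0.30 and BATF, a partner of JUN proteins in immune cells, by 0.83. BATF was very low, at 0 to 0.452 TPM in naive skin and 0 to 3.25 TPM in bitten skin. The 10 measured integrated stress response genes had 5 lower, 5 higher and 0 calls, with a median of 0.08 beside the same 35.4% and 0.10. The smallest adjusted p of all lists was that of DDIT3, a stress-induced factor downstream of ATF4, at -0.97 (SE 0.186, adjusted p = 0.0729 by limma). It stood at 43.5, 50.6 and 26.6 TPM in naive skin and between 12.5 and 29.9 TPM in the 10 bitten libraries, below every naive library of its own experiment in each.

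Of the 21 measured upstream kinases and serum response factors, 0 were called, with 12 lower and 9 higher and a median of -0.02, against 35.4% of all genes lower and a median of 0.10. SRF, which binds the promoters of FOS and EGR1, was the lowest of them at -0.62 (SE 0.144, adjusted p = 0.113 by limma). It stood at 78.2 and 78.9 TPM in CK1 naive skin against 36.8 to 56.1 TPM in bitten CK1 skin, and at 28.6 TPM in EF19-5 naive skin against 17.1 to 25.05 TPM in bitten EF19-5 skin. ELK3, a partner of SRF, lay at 0.50 and MRTFB at 0.34.

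The 13 measured MAP kinase phosphatases and feedback inhibitors, the relatives of DUSP1 in function, had 6 lower, 7 higher and 0 calls, with a median of 0.03, against 35.4% of all genes lower and a median of 0.10. DUSP10, which acts on p38 and JNK kinases, differed by -1.16 (adjusted p = 0.128 by limma), DUSP6 and DUSP8 by -0.52 each and DUSP4 by 0.73. The 31 measured other immediate early signalling and secreted genes had 14 lower, 17 higher and 0 calls and a median of 0.05 beside the same background, with ZFP36L2 at 0.73, IER5L at 0.75, TRIB1 at -0.50 and HBEGF, a growth factor for keratinocytes, at -0.40. All 5 measured heat shock genes lay lower, with 0 calls and a median of -0.32, against 35.4% of all genes lower and a median of 0.10, HSPA8 at -0.49 and HSP90AA1 at -0.43 among them. At an unadjusted p under 0.05, 13 of the 117 list entries were lower and 8 higher, where the shares of all genes were 4.58% and 11.2%.

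**Figure D5:**
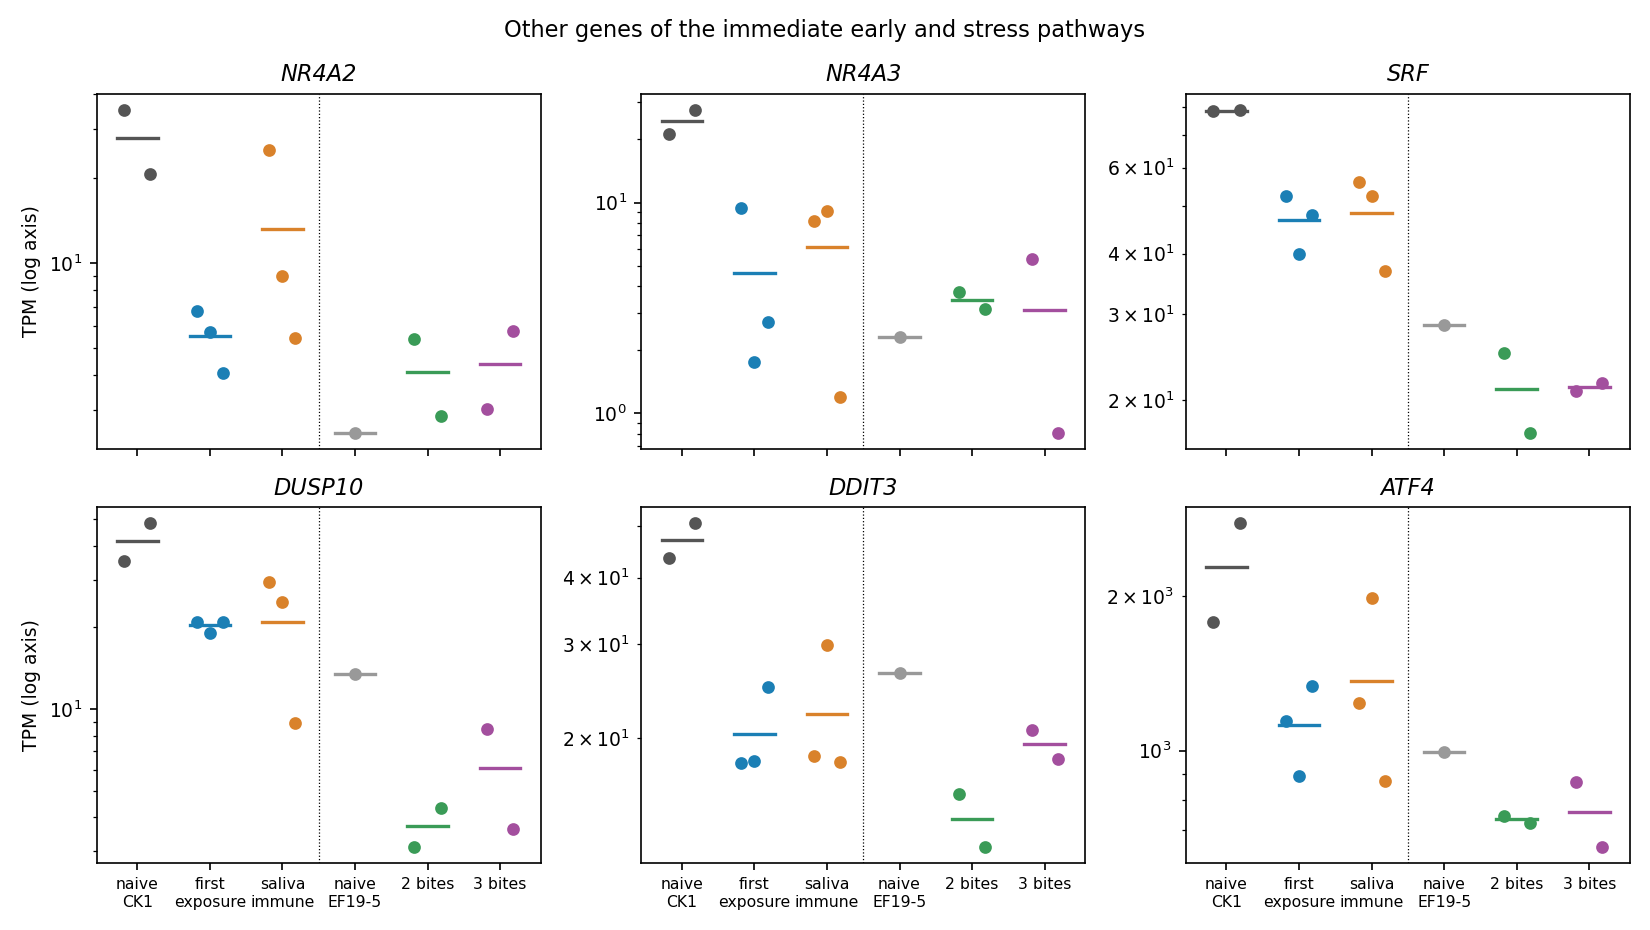
TPM of 6 genes of the pathway lists in each library (log vertical axis), by group, with CK1 left and EF19-5 right of the dotted line; points are libraries and bars are group means. NR4A3, SRF, DUSP10 and DDIT3 are highest in the 2 CK1 naive libraries, and in EF19-5 the naive library of SRF, at 28.6 TPM, lies above all 4 bitten libraries.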

How the data were processed

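RNA-seq values of 13 guinea pig skin libraries were analysed as the authors deposited them, in TPM, in 1 table. The submitters' processing notes name Trimmomatic, StringTie and DESeq without versions. No source used here gives the aligner, genome build or annotation, so no coordinates or sequences are printed. Depth is unknown, and TPM keeps none, so no counting interval is given. Of 26855 genes, 18254 carry a symbol.

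Tests covered the 14979 genes that reached 1 TPM in 2 or more libraries. Values were transformed as log2(TPM + 1) and fitted by limma 3.58.1, run in R 4.3.3 (empirical Bayes with trend, Benjamini-Hochberg adjustment over all of them), and the fit was tested on simulated data. Bitten against naive used a bitten and an experiment term, and the 6 group comparisons a model of 5 groups and the experiment with a shared spread. That model takes the spread of the single EF19-5 naive library from the other groups. Correlations used Python 3.11.15 and scipy 1.17.1 with 100000 permutations.

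All 9 members are named, with, from each list, any gene called and the 4 with the smallest p in bitten against naive, and the 5 genes most like ATF3, FOSB and NR4A1. Some genes that this rule names are not reported here. The 6 genes plotted from the lists were picked after their values were seen. The members and lists were chosen with earlier results of these data known. Alternatives were another pseudocount, no filter, median-of-ratios scaling, no experiment term, experiments fitted apart, a muscle covariate, array weights and leaving out each library.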

Additional observations from a re-analysis of the deposited data

Results flagged for a closer look

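Within groups of 4 to 10 libraries, 7 levels lay far from the rest of their group by Dixon's criterion, out of 27 groups tested, where chance gives about 1 in 20. Among the 4 bitten libraries of EF19-5, which pool 2 and 3 bites, 3 bites replicate 2 stood apart in 5 members. It held 514 TPM of DUSP1 against 159 TPM in the next library, 526 TPM of EGR1 against 181 TPM, and 758 TPM of FOS against 181 TPM. It also held 46.1 TPM of FOSB against 14.1 TPM and 82.0 TPM of EGR2 against 51.2 TPM. In ATF3 and NR4A1 its levels were 1.02 and 1.03 times those of 3 bites replicate 1. ATF3 in saliva immune replicate 1, at 77.5 TPM, stood apart both among the 6 bitten CK1 libraries and among all 10 bitten libraries, where the next level was 45.2 TPM. The 5 members of 1 library are correlated and are not separate events.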

How the results depend on the processing

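Over 20 alternatives, 1334 values of single members kept their sign and their side of the threshold, 47 changed sign and 5 became calls. ATF3, FOSB and NR4A1 kept the sign of their difference in bitten, first exposure and saliva immune against naive skin throughout. In bitten against naive skin their adjusted p by limma ran from 0.0839 to 0.824, from 0.0587 to 0.824 and from 0.145 to 0.927. Members called numbered 1 in 2 bites against naive skin without the experiment term, 3 in saliva immune against first exposure skin with array weights, and 0 to 1 in first exposure against naive skin over left-out libraries. Leaving out libraries moved the member median from -2.15 to -0.72 in first exposure against naive skin and from -1.74 to -0.45 in saliva immune against naive skin (without naive replicates 2 and 1). It moved from 0.36 to 1.69 in 3 against 2 bites (without 3 bites replicates 2 and 1), from -1.30 to -0.54 in bitten against naive skin and from -0.10 to 0.69 in saliva immune against first exposure skin. It moved from -0.57 to 0.43 in 3 bites against naive skin.

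Calls over all genes ran, against the main count, from 1 to 92 (6) in bitten, 1 to 19 (5) in first exposure, 1 to 20 (1) in saliva immune, 1 to 254 (2) in 2 bites and 1 to 30 (1) in 3 bites against naive skin. They ran from 0 to 2174 (0) in saliva immune against first exposure skin with array weights at the top, from 0 to 1458 (0) in 3 against 2 bites with the muscle covariate at the top, and from 0 to 33 (0) for the difference between experiments.

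Signs changed as follows, and the cause was not tested. With median-of-ratios scaling EGR2 was -0.17 in saliva immune against naive skin and JUNB 0.087 in the difference between experiments. Without the experiment term EGR2 was -0.15 in saliva immune against naive skin, and in 3 bites against naive skin DUSP1 was -0.21, JUN -0.42, FOS -0.51, ATF3 -1.33 and EGR2 0.053. With the muscle covariate EGR2 was -0.19 in first exposure and -0.50 in saliva immune, NR4A1 0.41 in 2 bites and 0.58 in 3 bites, and DUSP1 -0.052 in 3 bites against naive skin. With array weights JUNB was 0.20 in saliva immune against naive skin. Over left-out libraries the ranges that crossed 0 were, in saliva immune against first exposure, DUSP1 -0.19 to 0.86, JUNB -0.28 to 0.23, JUN -0.10 to 0.30, EGR1 -0.11 to 0.69, FOS -0.091 to 1.92 and EGR2 -0.63 to 0.028. In 3 bites against naive skin they were FOSB -1.55 to 0.43, JUNB -0.44 to 0.30, EGR1 -1.01 to 0.53, EGR2 -0.59 to 0.075, DUSP1 -0.57 to 1.11, JUN -0.30 to 0.60 and FOS -0.79 to 1.28. In the difference between experiments they were JUNB -0.66 to 0.52, EGR1 -0.45 to 1.19 and EGR2 -1.27 to 0.018. EGR2 ran from -0.63 to 0.65 in saliva immune, -0.46 to 0.20 in bitten and -0.31 to 0.97 in first exposure, and JUNB from -0.93 to 0.25 in first exposure and -0.91 to 0.27 in saliva immune against naive skin. FOSB ran from -0.0495 to 1.93 in 3 against 2 bites.

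Without naive replicate 3, the 2 bites and 3 bites differences from naive skin and the difference between experiments could not be fitted. Where a left-out library leaves 1 in a group, that library is taken to vary like the others. No paired analysis was possible because the labels give no replicate numbers that groups share, and numbers here follow accession order. The median range among naive libraries was 1.64, 1.65 with a pseudocount of 0.1 and 1.35 with median-of-ratios scaling.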
